A study of Mus musculus with 4 samples.

Results

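Immunoglobulin chain and joining genes encode the antigen receptor of B cells and the antibody that plasma cells secrete. Here 9 of them were followed, of 17252 genes in the table: the heavy chain constant genes Ighm, Ighg2b, Ighg2c and Ighg3, the κ light chain constant gene Igkc, the λ light chain constant gene Iglc2, the λ variable segments Iglv1 and Iglv2, and Igj, whose product, the joining chain, links IgM and IgA units into polymers. They were taken as a fixed list of genes, not by a cut on their values, though with earlier results of these data known. Each was counted as unique molecular identifiers (UMIs, tags that mark 1 captured transcript each) in cell barcodes with 300 to 3000 detected genes, and described across 4 single-cell libraries and across cell classes named from other genes.

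A B cell joins variable, diversity and joining segments into 1 heavy chain and 1 light chain gene, and shows the product with Cd79a and Cd79b as its receptor. Naive B cells make IgM, and class switching replaces the μ constant region with a γ, α or ε one. Plasma cells secrete the same antibody, carry far more immunoglobulin RNA than other B cells, and have lost CD20 (Ms4a1), the target of anti-CD20. T, NK, myeloid and erythroid cells do not make a functional immunoglobulin chain, and the UMIs of these genes in such cells are given beside those of B cells for comparison, without a test of where they came from.

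The libraries came from Drop-seq, in which single cells and barcoded beads share droplets, on spleens of BALB/c mice that carried the BCL1 B cell lymphoma, an IgM λ line, and were given different antibodies. All mice received 10000 tumor cells on day 0, and spleens were digested with Liberase on day 13. The combination library came from mice that received both antibodies, anti-CD20 at day 4 followed by daily anti-CD27 from day 5 to day 8. The anti-CD27 library came from mice that received only anti-CD27 at those times, the anti-CD20 library from mice that received only anti-CD20 at day 4, and the isotype control library from mice that received a control antibody. These days are those of the sample labels, and the study's methods for the single-cell experiment name earlier ones. With 1 library per treatment no difference between treatments could be tested, and the number of mice behind each library was not given. Intervals are 95% intervals, and the limit given beside a count of 0 is that of 3 counts. Both cover counting error only, and fewer cells of a type cannot be told apart from less RNA per cell in a whole-library value.

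After the gene limits, 1770 of 3198 barcodes were kept: 432 from combination, 497 from anti-CD27, 501 from anti-CD20 and 340 from isotype control. They held 440710 to 939565 UMIs per library, fewest in isotype control, with a median per cell of 1031 to 1395.5 UMIs. Of all barcodes 8 were found in more than 1 library, and 0 of these were among the kept ones, while 62 kept barcodes lay 1 base from another of the same library. Cells were clustered without any immunoglobulin gene and named from markers. The B-like class, with Fcer2a, Pcp4, Cr2, Ly6d, Ccr6, Il9r and Bank1 among its leading genes, held 187 anti-CD27, 99 anti-CD20 and 173 isotype control cells. The germinal center B-like class, led by Rgs13 and Nuggc, held 102 anti-CD20 and 43 isotype control cells. Combination had 0 of 432 cells in either class, which allows a share of up to 0.694%, and anti-CD27 had 0 of 497 germinal center B-like cells, which allows up to 0.604%. With other settings of the classes up to 5 combination cells were B-like. The plasma cell-like class, which carried Sdc1, Xbp1 and Mzb1, held 10, 19, 36 and 15 cells in combination, anti-CD27, anti-CD20 and isotype control. No marker used for naming tells BCL1 cells from the host's own B cells, so a B-like cell may be either, and 158 cells stayed unnamed.

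Because Drop-seq reads lie near the ends of transcripts, what tells 1 member from another is the sequence there. The sequences below are coding bases without the untranslated ends, and show how alike the γ and λ members are over those stretches only. They were read from the mm10 reference, which is the build the authors aligned to and derives from C57BL/6 mice. The γ genes lie on chromosome 12 within the heavy chain constant cluster. The 150 coding bases that end the secreted form, in exon 4, lie at chr12:113306392-113306541 for Ighg2b, chr12:113287392-113287541 for Ighg2c and chr12:113359668-113359817 for Ighg3, all on the minus strand. Capitals mark the 66 positions at which the 3 genes are not all alike.
Ighg2b: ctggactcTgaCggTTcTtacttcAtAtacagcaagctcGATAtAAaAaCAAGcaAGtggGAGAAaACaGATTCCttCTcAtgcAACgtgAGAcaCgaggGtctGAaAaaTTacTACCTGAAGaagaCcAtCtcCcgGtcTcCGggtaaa
Ighg2c: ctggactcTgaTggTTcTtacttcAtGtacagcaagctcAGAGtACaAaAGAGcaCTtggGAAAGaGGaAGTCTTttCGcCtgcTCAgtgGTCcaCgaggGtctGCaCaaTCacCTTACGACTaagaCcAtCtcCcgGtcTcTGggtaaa
Ighg3: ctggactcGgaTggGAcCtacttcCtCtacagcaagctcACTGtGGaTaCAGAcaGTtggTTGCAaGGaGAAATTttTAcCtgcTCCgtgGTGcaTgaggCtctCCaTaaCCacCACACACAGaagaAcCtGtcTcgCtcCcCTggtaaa
In this window Ighg2b and Ighg2c shared 74% of bases, Ighg2b and Ighg3 64.7%, and Ighg2c and Ighg3 68%. Further inside, Ighg2b and Ighg2c had 78 bases in common without a mismatch in exon 3, at chr12:113306869-113306946 and chr12:113287869-113287946, so that a read lying wholly there cannot be given to either gene.
Shared by Ighg2b and Ighg2c: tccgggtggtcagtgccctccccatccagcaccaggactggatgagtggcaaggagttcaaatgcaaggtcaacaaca
In other transcripts, Ighg2b and Ighg3 had 88 bases in common in exon 5, at chr12:113304919-113305006 and chr12:113358080-113358167. A read lying wholly there cannot be given to either of them. BALB/c mice carry Ighg2a in the place of Ighg2c. Reads counted as Ighg2c here are therefore reads of a BALB/c γ gene aligned to a C57BL/6 sequence, and the split between Ighg2b and Ighg2c is uncertain.

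The λ members lie on chromosome 16. Besides Iglc2 the reference holds Iglc1 and Iglc3, which were not in the table and are not analysed here. Their last 120 coding bases lie at chr16:19061755-19061874 for Iglc1, chr16:19198539-19198658 for Iglc2 and chr16:19065368-19065487 for Iglc3, on the minus strand, and capitals mark the 39 positions at which the 3 are not all alike.
Iglc1: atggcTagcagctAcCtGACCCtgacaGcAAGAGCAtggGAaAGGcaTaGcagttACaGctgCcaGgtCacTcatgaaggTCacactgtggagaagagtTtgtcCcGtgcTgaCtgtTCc
Iglc2: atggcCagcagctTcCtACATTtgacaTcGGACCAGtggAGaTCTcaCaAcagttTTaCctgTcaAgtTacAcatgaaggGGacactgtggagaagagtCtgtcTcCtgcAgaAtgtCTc
Iglc3: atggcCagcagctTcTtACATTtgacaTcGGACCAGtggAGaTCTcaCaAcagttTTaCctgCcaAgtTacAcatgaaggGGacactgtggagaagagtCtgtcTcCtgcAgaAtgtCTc
Iglc2 and Iglc3 differed at 2 of these 120 bases (98.3% identical), so Iglc2 UMIs may include Iglc3 transcripts, whereas Iglc1 shared 68.3% with either. The variable segments Iglv1 and Iglv2 were compared over 120 bases of exon 2, at chr16:19085202-19085321 and chr16:19260586-19260705 on the minus strand, where they differed at the 4 capital positions.
Iglv1: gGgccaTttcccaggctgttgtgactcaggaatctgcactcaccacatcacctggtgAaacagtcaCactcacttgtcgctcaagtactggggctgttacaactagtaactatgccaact
Iglv2: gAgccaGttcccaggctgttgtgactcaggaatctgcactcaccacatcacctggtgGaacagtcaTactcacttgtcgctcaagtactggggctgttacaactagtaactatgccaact
Their identity was 96.7%, and reads over these bases could be assigned to the wrong segment. The bases lie upstream of the constant region, and how far the counts rest on them is not known. In mouse λ chains Iglv1 is joined to Iglc1 or Iglc3, which lie downstream of it, and Iglv2 mainly to Iglc2, so a chain of Iglv1 and Iglc1 would give no Iglc2 UMIs. The other members lie elsewhere: Ighm at chr12:113418558-113422730 on the minus strand, Igkc at chr6:70726435-70726966 on the plus strand, and Igj, annotated there as Jchain, at chr5:88519809-88527891 on the minus strand.

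Members took 0.337% of all UMIs in combination, 1.94% in anti-CD27, 3.01% in anti-CD20 and 2.5% in isotype control. In CPM (the UMIs of a gene scaled to a library total of 1000000 UMIs in kept cells), their sum was 3373 (interval 3256 to 3494) in combination, 19440.4 (19155 to 19729) in anti-CD27, 30108 (29758 to 30460.5) in anti-CD20 and 25007 (24543 to 25479) in isotype control. The combination library lay below the other 3 by more than the counting intervals.

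Among the heavy chain genes Ighm, the μ constant gene of naive and memory IgM cells, had 1366 CPM in combination, 5526 in anti-CD27, 6943 in anti-CD20 and 7045 in isotype control. It was found in 64 of 432, 251 of 497, 290 of 501 and 225 of 340 cells of these libraries. Anti-CD20 and isotype control could not be told apart in Ighm, with intervals of 6775 to 7113 and 6799.8 to 7298 CPM. The γ genes, which are used after class switching, followed another order. Ighg2b had 0 UMIs in combination, 584 CPM in anti-CD27, 1784 in anti-CD20 and 86.2 in isotype control. Ighg2c had 0 UMIs in combination and 799.8 CPM in anti-CD27, 2279 in anti-CD20 and 70.3 in isotype control. Ighg3 had 2.18 CPM (2 UMIs) in combination, 117 in anti-CD27, 375 in anti-CD20 and 31.8 in isotype control. All 3 γ genes were highest in anti-CD20 and next highest in anti-CD27, values that rested on few cells, as described further on.

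Igkc, the κ constant gene that most mouse antibodies use, had 1434 CPM in combination, 8766 in anti-CD27, 13720.2 in anti-CD20 and 12875 in isotype control. Iglc2 had 40.3 CPM in combination, 828 in anti-CD27, 1077 in anti-CD20 and 1942 in isotype control. Isotype control had the highest Iglc2 value by a margin wider than the counting intervals (1012 to 1146 CPM in anti-CD20 against 1814 to 2077 CPM in isotype control). Iglv1 had 33.8 CPM in combination, 738 in anti-CD27, 608 in anti-CD20 and 545 in isotype control. Iglv2 had 0 UMIs in combination, 22.0 CPM in anti-CD27, 46.8 in anti-CD20 and 132 in isotype control, in no more than 13 cells of a library. Igj had 497 CPM in combination, 2058 in anti-CD27, 3276 in anti-CD20 and 2280 in isotype control, and it was detected in 9, 32, 127 and 54 cells of these libraries.

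**Figure D1:**
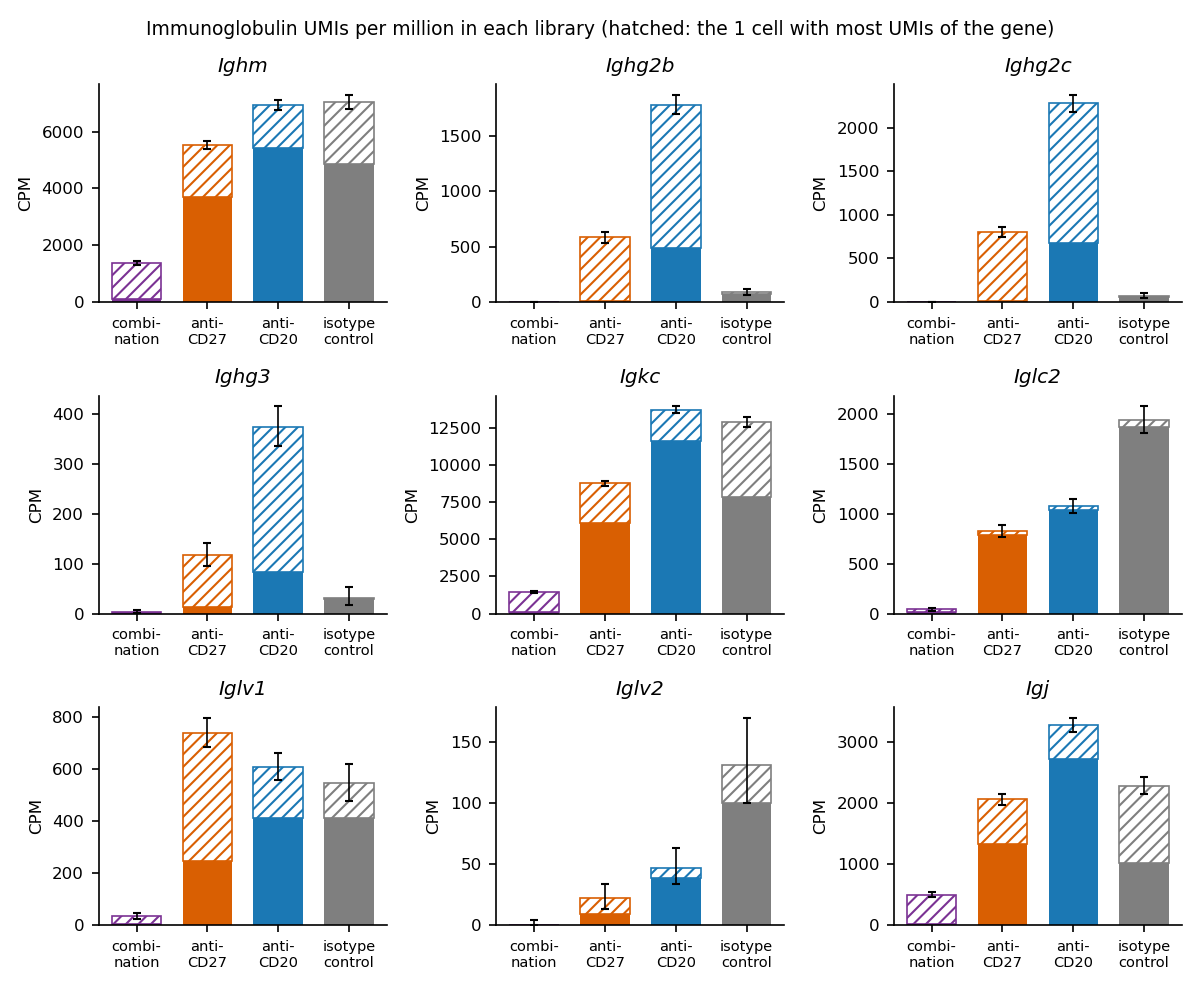
Bars give the level of each of the 9 members in the 4 libraries, in CPM on a linear axis, with exact 95% Poisson intervals for counting error. The hatched part of a bar is the 1 cell with the most UMIs of the gene in that library. All members are lowest in combination, and the 3 γ genes are highest in anti-CD20, at 1784, 2279 and 375 CPM.

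Adding anti-CD27 to anti-CD20 was the comparison the study was built on, and every member was lower in combination than in anti-CD20. Their sum was 3373 CPM in combination and 30108 CPM in anti-CD20, an 8.93-fold difference (log2 ratio -3.16, interval -3.21 to -3.10). Past 2-fold with an interval that excludes no change, 9 of 9 members were lower, where 8.33% of the 7572 genes with at least 30 UMIs in the libraries together were, and 0 were higher, where 9.43% were. The median log2 ratio of the members was -4.74, or -4.17 with the 3 members without a combination UMI placed at the floor of 3 counts, and that of all genes was -0.08. The smallest difference was that of Ighm, with 1253 UMIs in combination and 6523 in anti-CD20 (log2 ratio -2.35, -2.43 to -2.26). Igj had a log2 ratio of -2.72, Igkc of -3.26, Iglv1 of -4.17 and Iglc2 of -4.74 (-5.25 to -4.27). Ighg2b was at least 546-fold lower, Ighg2c at least 697-fold lower and Iglv2 at least 14.3-fold lower in combination, each against the floor of 3 counts in that library.

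The ratios of Ighm, Igkc and Igj depended on a single cell. In combination 1 plasma cell-like cell held 2906 of the 3095 member UMIs (93.9%), namely 1162 of 1253 Ighm UMIs, 1246 of 1316 Igkc UMIs and 447 of 456 Igj UMIs. Leaving out the cell with the most UMIs of the gene in each library moved the log2 ratio of the sum from -3.16 to -6.88, that of Ighm to -5.77, that of Igkc to -7.26 and that of Igj to -8.12. Without the plasma cell-like class the sum's log2 ratio was -5.21. For these genes and the sum the direction was the same each time, and the difference was larger without those cells. For Ighg2b and Ighg2c it was smaller, since 1216 and 404 of the 1676 Ighg2b UMIs and 1501 and 575 of the 2141 Ighg2c UMIs of anti-CD20 lay in 2 plasma cells. Without the plasma cell-like class 52 and 61 UMIs remained in anti-CD20 and 0 in combination, and Ighg2b was at least 18.2-fold and Ighg2c at least 21.3-fold lower in combination.

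Between anti-CD27 alone and isotype control the members went different ways. Iglc2 was lower, with 828 CPM in anti-CD27 and 1942 CPM in isotype control (log2 ratio -1.23, -1.37 to -1.09), and so was Iglv2 (-2.58, -3.39 to -1.83). The 3 γ genes were higher, with log2 ratios of 2.76 for Ighg2b, 3.51 for Ighg2c and 1.88 for Ighg3. So 2 of 9 members were lower, where 6.2% of 6612 genes were, and 3 were higher, where 6.52% were. Ighm (-0.35), Igkc (-0.55), Iglv1 (0.44) and Igj (-0.15) lay within 2-fold. Iglv1 and Igj changed sign without the top cell of each library, to -0.76 (-1.05 to -0.47) and 0.37 (0.21 to 0.53), as 1 anti-CD27 plasma cell held 449 of 671 Iglv1 UMIs and 1 isotype control cell 557 of 1005 Igj UMIs. The median of the members was -0.15 and that of all genes -0.11. The higher γ values came from 1 plasma cell-like cell in anti-CD27, with 520 of 531 Ighg2b UMIs, 716 of 727 Ighg2c UMIs and 94 of 106 Ighg3 UMIs. Without the top cell of each library the log2 ratios were -2.58 for Ighg2b, -2.34 for Ighg2c and -1.16 for Ighg3, the last with an interval that includes no change (-2.42 to 0.09). Outside that cell Ighg2b had 11 UMIs in anti-CD27, against 38 in isotype control.

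Anti-CD20 alone and isotype control had like levels of the chains that most cells use. Ighm had a log2 ratio of -0.02 (-0.08 to 0.04) and Igkc of 0.09 (0.05 to 0.14), which was 0.57 without the top cells and -0.32 without the plasma cell-like class. Iglv2 was lower (-1.49, -2.09 to -0.90), 1 of 9 members, where 2.86% of 6636 genes were lower, and Iglc2 was lower within 2-fold (-0.85). The 3 γ genes (3 of 9 members) were higher, where 2.58% of genes were, with log2 ratios of 4.37 for Ighg2b, 5.02 for Ighg2c and 3.56 for Ighg3. Without the plasma cell-like class these ratios were -0.55, -0.02 and 0.12. Igj was higher by a log2 ratio of 0.52 (0.42 to 0.63), and by 1.41 without the top cells, since 1 isotype control cell held 557 of the 1005 Igj UMIs there.

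Between combination and anti-CD27 alone, 8 of the 8 members with enough UMIs were lower, where 3.55% of 7399 genes were, and 0 were higher, where 3.11% were. The log2 ratio of the sum was -2.53 (-2.58 to -2.47) and -6.11 without the top cells. This comparison shares its combination library with the one against anti-CD20, so they are not independent.

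Most member UMIs of the series lay in a few plasma cells. The plasma cell-like class held 80 cells, of which 26 carried at least 3 of the plasma cell markers: 1 in combination, 7 in anti-CD27, 14 in anti-CD20 and 4 in isotype control. Only barcodes with at least 300 genes are counted here. Barcodes below that limit included some rich in member UMIs in anti-CD27 and isotype control, as given at the end. The numbers of plasma cells are therefore not compared between libraries. These 26 cells were 1.47% of all cells (0.962 to 2.14%) and held 45823 of 60074 member UMIs (76.3%, 75.9 to 76.6%). The other 54 cells of the class carried fewer markers and added little, as the whole class held 76.8%, and the accounts of single plasma cells that follow are of the 26. Their share of the member UMIs was 93.9% in combination, 81.6% in anti-CD27, 76.1% in anti-CD20 and 63.2% in isotype control. They held 93.4% of all Igj UMIs and 74.1% of Ighm UMIs but 12.9% of Iglc2 UMIs, since 61.6% of Iglc2 UMIs lay in B-like cells.

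In 24 of the 26 cells at least 10 heavy chain UMIs were counted, and among these members made up 4.43% to 63.8% of a cell's UMIs, with a median of 40.7%. A cell in anti-CD20 had 5639 member UMIs of 9648 UMIs in all, and a cell in isotype control had 3773 of 5915. The other 2 cells, both from anti-CD20, had 9 and 8 member UMIs, against a median of 13 in B-like cells. The 1 such cell of the combination library had 4988 UMIs, 7 plasma cell markers and members at 58.3% of its UMIs. Its variable segment with the most UMIs was Ighv10-1, with 54.

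**Figure D2:**
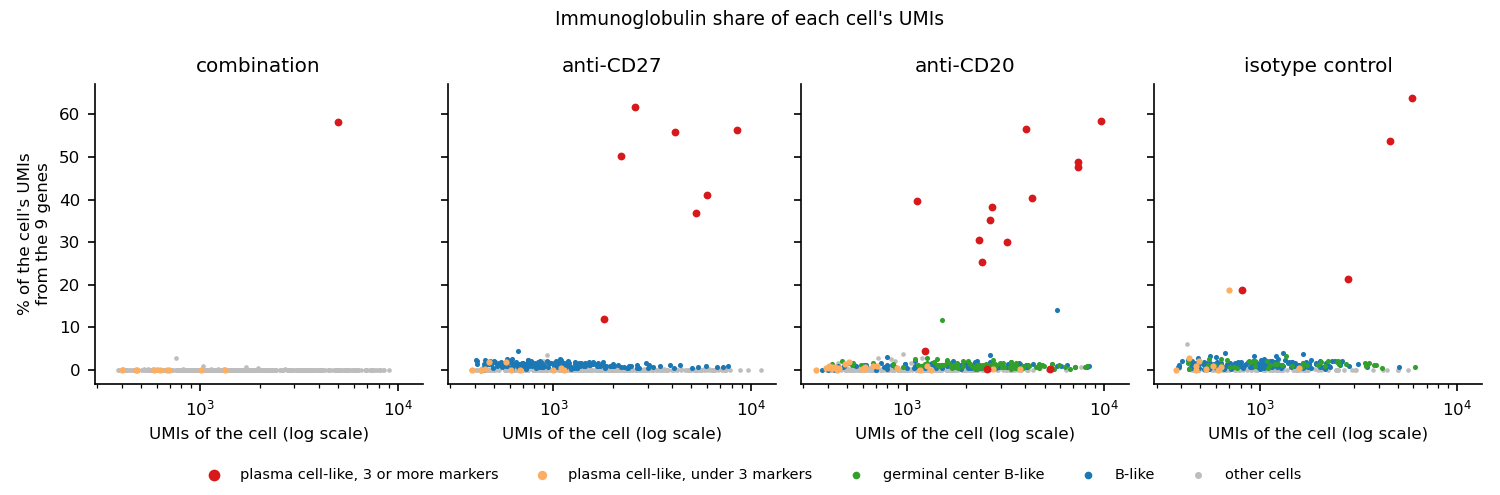
Member UMIs as a percentage of each cell's UMIs, plotted against the cell's UMIs on a log axis, 1 panel for each library, with plasma cell-like cells with at least 3 markers, other plasma cell-like cells, germinal center B-like, B-like and all other cells drawn apart. Nearly all cells that stand above the rest are plasma cell-like with at least 3 markers, and combination has 1 of them, at 58.3%.

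Each of the 24 cells used 1 heavy chain class almost alone, with at least 98.4% of its heavy chain UMIs in that class when Ighg2b, Ighg2c and Ighg3 are counted as 1. IgM was the class of 17 cells: 1 in combination, 6 in anti-CD27, 6 in anti-CD20 and 4 in isotype control. The others were 3 IgA cells and 1 IgG1 cell, all from anti-CD20, and 3 cells with Ighg2b, Ighg2c and Ighg3 together, 1 from anti-CD27 and 2 from anti-CD20. Combination, with 1 such cell, and isotype control, with 4, were too few to read an absence of switched cells from.

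The γ members had almost all of their UMIs in 4 cells, the 4 with at least 20 of them in sum. These cells held 95.9% of Ighg2b, 96.9% of Ighg2c and 86.9% of Ighg3 UMIs of the series. The anti-CD27 plasma cell had 520 Ighg2b, 716 Ighg2c and 94 Ighg3 UMIs and 0 Ighm UMIs. The anti-CD20 plasma cells had 1216 Ighg2b with 1501 Ighg2c and 273 Ighg3 UMIs in the first, and 404 with 575 and 43 in the second. The fourth was an anti-CD20 macrophage/monocyte-like cell with 13 Ighg2b, 17 Ighg2c and 2 Ighg3 UMIs among its 7639 UMIs. The ratio of Ighg2b to Ighg2c was 0.726, 0.810, 0.703 and 0.765 in these cells. A plasma cell makes 1 heavy chain class. The near-constant ratio of 2 γ genes was measured in these 4 cells only, and its origin in the transcripts or in the alignment was not tested. Pooled B-like cells had 7 Ighg2b and 3 Ighg2c UMIs in anti-CD27, 24 and 17 in anti-CD20, and 31 and 22 in isotype control. Pooled germinal center B-like cells had 10 and 17 in anti-CD20 and 3 and 2 in isotype control. The ratio of Ighg3 to Ighg2c varied more, between 0.0748 and 0.182. So the levels of Ighg2b and Ighg2c are not read apart here.

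Light chains also divided these plasma cells. With Iglc2 and the Iglv genes counted as λ, 20 of the 24 cells were κ, with at least 88.6% κ, 4 were λ, with at most 7.14% κ, and 0 lay between. Of the λ cells 3 had more Iglv1 than Iglc2 UMIs. An anti-CD27 cell had 449 Iglv1 UMIs, 5 Iglc2 UMIs and 11 Igkc UMIs. An anti-CD20 cell had 183 Iglv1, 28 Iglc2 and 0 Igkc UMIs, and an isotype control cell had 58, 6 and 2. In the last, an anti-CD20 IgA cell, 10 Iglc2, 3 Iglv1 and 1 Igkc UMIs were counted. The 4 λ cells had 28 or fewer Iglc2 UMIs, where κ plasma cells had up to 39, so Iglc2 alone did not tell them apart.

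B-like cells had lower levels than plasma cells. Members summed to 11202 CPM in anti-CD27, 13838 in anti-CD20 and 13580.4 in isotype control, and a B-like cell had a median of 13 member UMIs, with at least 1 in 454 of 459 cells. Ighm was found in 90.4% of anti-CD27, 85.9% of anti-CD20 and 81.5% of isotype control B-like cells, where T-like cells of the same libraries had it in 23.7%, 28% and 41.7%. Median depths were 976, 1853 and 1007 UMIs in these B-like cells and 913, 1186.5 and 1031 in the T-like cells. With each cell thinned to 400 UMIs, which left out 5 B-like and 2 T-like cells of these libraries, the shares were 68.4%, 64.9% and 62.9% in B-like cells and 12%, 11.4% and 16.7% in T-like cells. So Ighm in B-like cells lay above its share in T-like cells of each library, and a B-like cell without an Ighm UMI at this depth is not shown to lack it.

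Between anti-CD27 and isotype control B-like cells, Ighm had 2641 and 2904 CPM (log2 ratio -0.14, -0.30 to 0.03) and Igkc a log2 ratio of -0.10 (-0.21 to 0.01). Iglc2 was lower, with 2374 CPM in anti-CD27 and 3252 CPM in isotype control (-0.45, -0.62 to -0.29). Of 6 members with enough UMIs, 3 were lower past 2-fold, where 3.53% of 2918 genes were, and 0 were higher, where 2.98% were: Ighg2b with 7 and 31 UMIs (-2.51), Iglv1 with 44 and 78 UMIs (-1.19) and Iglv2 with 0 and 52 UMIs. The 52 Iglv2 UMIs came from 9 isotype control cells, with up to 14 in 1 cell. The median of the members was -0.82 and that of all genes -0.07.

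In anti-CD20 and isotype control B-like cells, Ighm had 4463 and 2904 CPM (log2 ratio 0.62, 0.47 to 0.77), and a log2 ratio of -0.08 (-0.25 to 0.09) without the top cell of each library. A single anti-CD20 cell with 5814 UMIs, 5 plasma cell markers and 814 member UMIs gave 393 of the 962 Ighm UMIs and 39 of the 56 Igj UMIs. Igj was called higher (1.76), 1 of 8 members, where 2.29% of 2662 genes were, and that call rests on this cell. Iglv1 (-1.30) and Iglv2 (0 and 52 UMIs) were lower, where 4.92% were, and Iglc2 had a log2 ratio of -0.79 (-0.97 to -0.61). In germinal center B-like cells 0 of 6 members passed in either direction, where 2.57% of 2486 genes were lower and 3.06% higher. Their sum was 11252 CPM in anti-CD20 and 13399 CPM in isotype control.

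**Figure D3:**
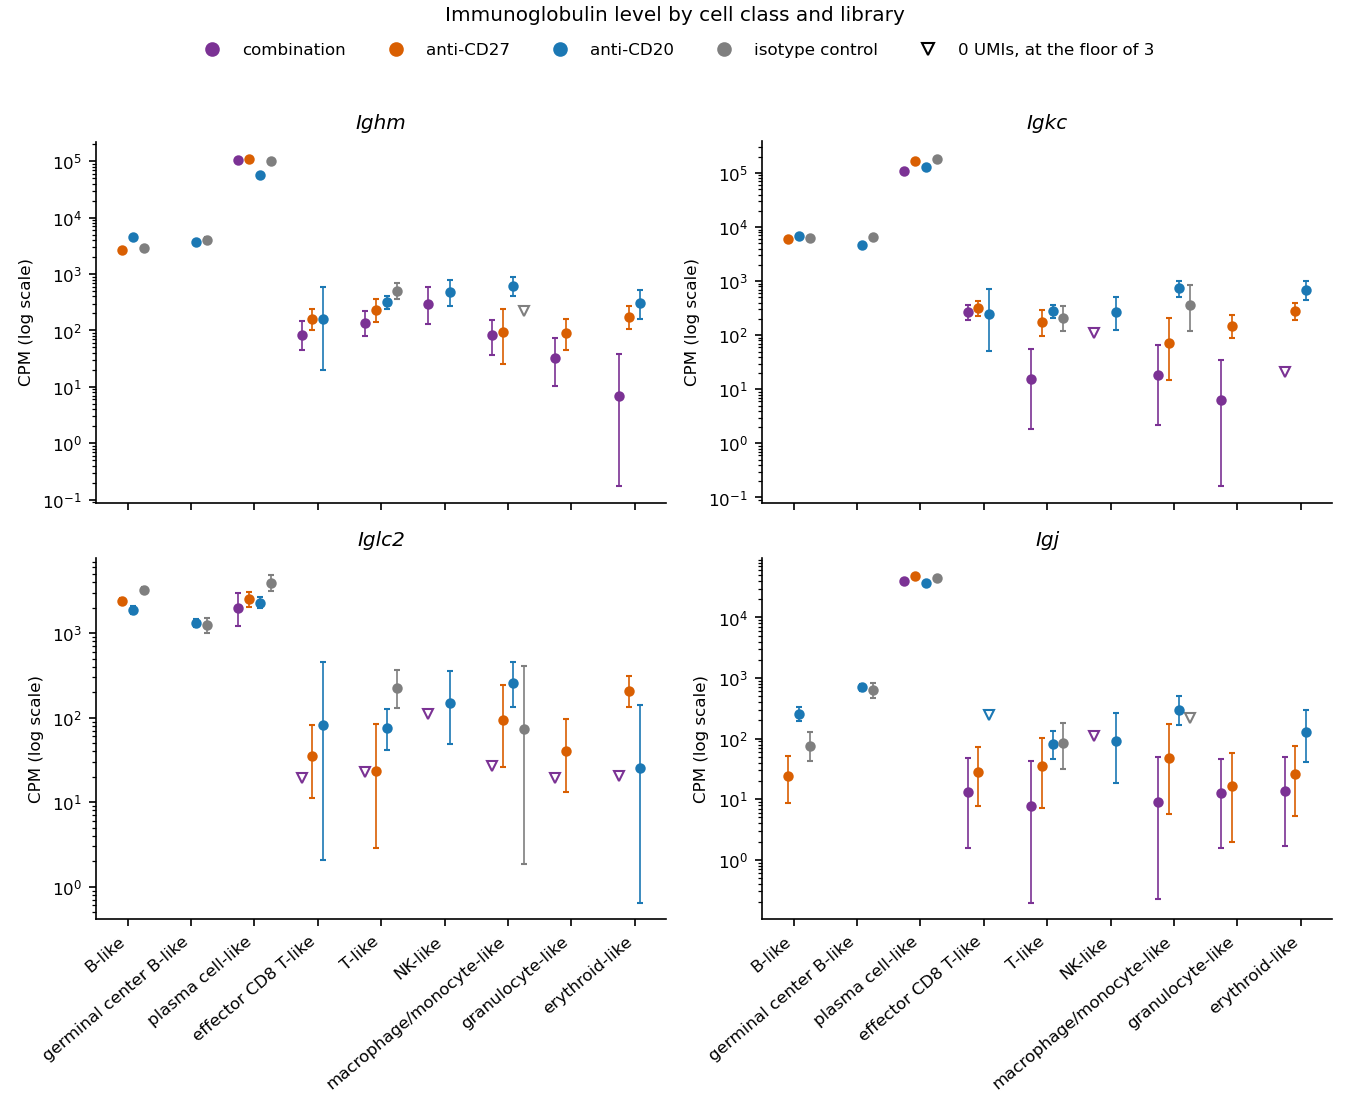
Levels of Ighm, Igkc, Iglc2 and Igj in CPM on a log axis in the cell classes of each library that hold at least 10 cells, with exact 95% Poisson intervals for counting error and triangles for 0 UMIs at the floor of 3 counts. Ighm, Igkc and Igj are highest in plasma cell-like pools, while Iglc2 in B-like pools, at 2374 CPM in anti-CD27 and 3252 CPM in isotype control, is near its plasma cell-like level, and Igkc in combination T-like cells lies at 15.3 CPM.

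The germinal center B-like class differed from the B-like class in Igj. In anti-CD20, Igj was detected in 64 of 102 germinal center B-like cells and 16 of 99 B-like cells, and in isotype control in 23 of 43 and 14 of 173. Median depths were 2354.5 and 1853 UMIs in anti-CD20 and 1357 and 1007 in isotype control. At 400 UMIs per cell the shares were 23.5% and 5.15% in anti-CD20, and 11.6% and 3.53% in isotype control. In T-like cells Igj was found in 10% of cells in either library, and in 2.68% and 3.33% once thinned. In CPM, Igj had 700.5 and 259.8 in anti-CD20 (log2 ratio 1.43, 1.0 to 1.89) and 639 and 76.7 in isotype control (3.06, 2.20 to 4.0). Without the top cell of each class the anti-CD20 ratio was 3.06, since the B-like cell named above held most of its class's Igj.

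Iglv1 was higher in germinal center B-like than in B-like cells too, at a log2 ratio of 1.80 (1.26 to 2.37) in anti-CD20 and 0.74 (0.20 to 1.26) in isotype control. It was detected in 26 of 102 and 11 of 99 cells in anti-CD20 and in 9 of 43 and 14 of 173 cells in isotype control. Iglv2, whose reads can be taken for those of Iglv1, had 33 and 0 UMIs in anti-CD20. In isotype control it went the other way, with 3 and 52 UMIs (-2.79, -5.12 to -1.17). The Iglv1 difference in isotype control is therefore not read apart from that of Iglv2. Iglc2 was lower, at -0.50 (-0.71 to -0.29) in anti-CD20 and -1.38 (-1.70 to -1.07) in isotype control. Ighm had a log2 ratio of -0.27 in anti-CD20 and 0.48 in isotype control. The negative value rests on the 1 B-like cell with 393 Ighm UMIs: without the top cell of each class Ighm was higher in germinal center B-like cells of both libraries, at 0.35 (0.19 to 0.50) and 0.44 (0.23 to 0.65). Igkc had -0.54 in anti-CD20, -0.29 without the top cells, and 0.07 (-0.08 to 0.22) in isotype control. Cells with more switched (γ or α) than Ighm UMIs, and at least 3 of them, numbered 7 of 102 germinal center B-like and 2 of 99 B-like cells in anti-CD20, and 1 of 43 and 5 of 173 in isotype control. In anti-CD27 B-like cells there were 0 of 187, which allows a share of up to 1.60%.

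Light chain use was read per cell from Igkc and Iglc2, in cells with at least 3 UMIs of them, as κ or λ where 80% or more was of 1 kind. A B cell normally expresses 1 light chain, and BCL1 is a λ line. Of 421 B-like cells that could be assigned, 172 were κ, 25 were λ and 224 (53.2%, 48.3 to 58.1%) had both. This rule misses λ chains without Iglc2 UMIs, so its λ and both counts are uncertain. By it the 26 plasma cells gave 21 κ, 2 λ and 3 with both, and with the Iglv genes added 21, 4 and 1. With the Iglv genes added, 426 B-like cells gave 157 κ, 28 λ and 241 with both. The values that follow in this paragraph use Iglc2 alone. Both chains were counted in 94 of 179 anti-CD27 cells (52.5%), 54 of 90 anti-CD20 cells (60.0%) and 76 of 152 isotype control cells (50%). The share differed by 2.51 points (-8.20 to 13.2) between anti-CD27 and isotype control and by 10 points (-2.97 to 22.3) between anti-CD20 and isotype control, and both intervals include no difference. Iglc2 made up 28.6% of Igkc and Iglc2 UMIs in anti-CD27 B-like cells, 21.6% in anti-CD20 and 33.8% in isotype control.

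Germinal center B-like cells had both chains less often, in 26 of 96 cells (27.1%) in anti-CD20 and 7 of 38 (18.4%) in isotype control. The difference from B-like cells of the same library was -32.9 points (-45.3 to -18.8) in anti-CD20 and -31.6 points (-43.7 to -14.7) in isotype control. Germinal center B-like cells had the higher median depth, as given above, and its part in the share was not tested. With the Iglv genes added to λ, germinal center B-like cells had both in 43 of 139 cells and B-like cells in 241 of 426. For comparison, T-like cells had 15 Igkc and 2 Iglc2 UMIs in 76 anti-CD27 cells, 51 and 14 in 150 anti-CD20 cells, and 15 and 16 in 60 isotype control cells, on average under 1 UMI per cell. The median B-like cell had 7 Igkc and 2 Iglc2 UMIs. Whether free RNA, doublets or reads assigned to the wrong gene made B-like cells appear to hold both chains was not tested.

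**Figure D4:**
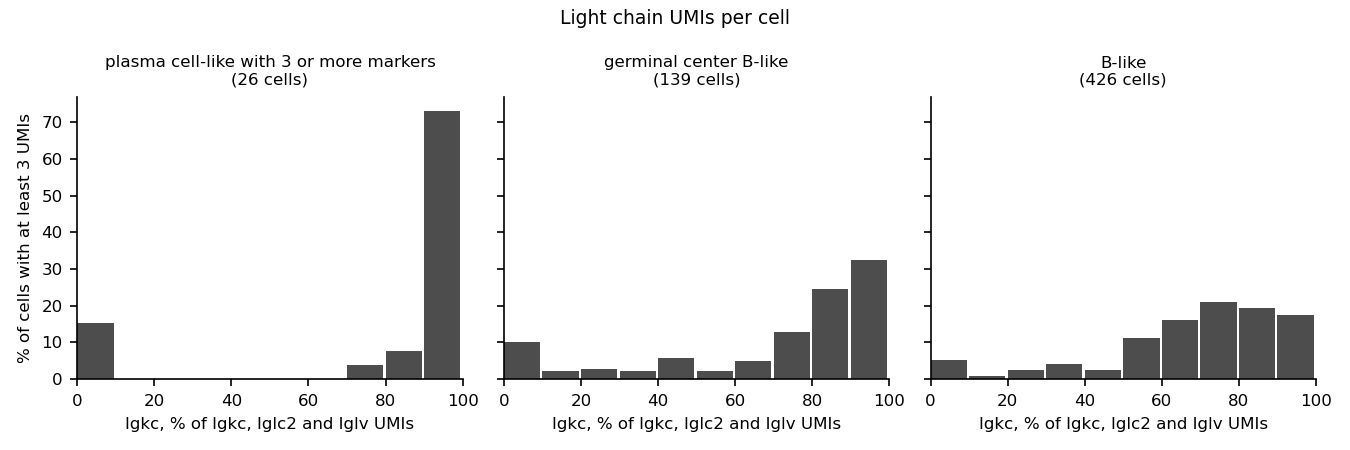
Share of cells by the percentage of κ among light chain UMIs (Igkc against Iglc2 with the Iglv genes), in steps of 10 points, for 26 plasma cell-like cells with 3 or more markers, 139 germinal center B-like and 426 B-like cells, each with at least 3 such UMIs. Plasma cell-like cells sit near the ends, with 19 of 26 at 90% κ or more, while most B-like cells spread between 50 and 100% κ, with 90 of 426 at 70 to 80%.

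B-like cells that held a UMI of Pcp4, Il9r or Ccr6 were set against those that held none. These genes are among the leading genes of the whole class, were detected in part of its cells and did not enter the light chain call. The share with both chains differed between them by 16.5 points (-0.00377 to 31.1) in anti-CD27 and by -17.0 points (-35.0 to 3.83) in anti-CD20. In isotype control both chains were seen in 38 of 62 cells with and 38 of 90 without such a UMI, a difference of 19.1 points (2.91 to 33.8). Cells with such a UMI were deeper in each library, with medians of 1444 and 868 UMIs in anti-CD27, 2232 and 1107 in anti-CD20, and 1222 and 846.5 in isotype control.

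In non-B cells the members were found at a low level that differed between libraries. Over T-like, effector CD8 T-like, NK-like, myeloid, dendritic and erythroid cells together they had 154 CPM in combination (353 cells), 523 in anti-CD27 (242 cells), 1123 in anti-CD20 (236 cells) and 816 in isotype control (97 cells). In T-like cells the levels were 168, 506, 788 and 1127 CPM. At least 1 member UMI was found in 19.5% of non-B cells in combination, 48.3% in anti-CD27, 56.8% in anti-CD20 and 51.5% in isotype control, at median depths of 1353, 1399, 1218 and 1064 UMIs. At 400 UMIs per cell these shares were 5.97%, 19.7%, 25.5% and 21.9%. Iglc2 was found in 0 of the 353 combination cells, which allows a share of up to 0.850%.

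The make-up of these UMIs was not the same in all classes of the combination library. Igkc had 41 UMIs in 19 of 61 effector CD8 T-like cells (267 CPM) but 2 UMIs in 112 T-like cells (15.3 CPM), a 17.5-fold difference (log2 ratio 4.13, 2.19 to 7.22). Ighm was not higher there than in T-like cells, with 13 UMIs in effector CD8 T-like and 18 UMIs in T-like cells (-0.70, -1.85 to 0.41). It did differ between other classes. T-like cells lay above erythroid-like (4.32, 1.66 to 9.70) and granulocyte-like cells (2.11, 0.62 to 3.89) in Ighm. Effector CD8 T-like cells lay above erythroid-like cells (3.63, 0.89 to 9.04), while their interval against granulocyte-like cells included no difference (1.41, -0.17 to 3.25). Of Ighm and Igkc UMIs, Ighm thus made up 24.1% (13.5 to 37.6%) among effector CD8 T-like and 90% (68.3 to 98.8%) among T-like cells, against 48.3% (46.3 to 50.3%) in the plasma cell-like class of that library. In that class 1162 of 1163 Ighm UMIs and all 1246 Igkc UMIs lay in 1 cell, so its value describes that cell. No effector CD8 T-like cell had more than 6 Igkc UMIs. Of 15 B cell markers 3 were detected in these 61 cells, with 35 UMIs (228 CPM), of which 32 were of Cd37, which T cells also express. Cd79a and Ms4a1 had 0 UMIs and Cd79b had 2. In the 112 T-like cells 2 markers were detected, with 41 UMIs (313 CPM), 39 of them of Cd37. The classes differed in depth, with medians of 2008 and 917 UMIs, and at 400 UMIs per cell Igkc was found in 8.20% and 0.901% of cells. The value changed with the cells and classes taken: the log2 ratio was 2.14 with no upper limit on genes and 0.99 when classes were taken from each cell's own markers, with 24 and 19 UMIs. In anti-CD27 Igkc had 45 UMIs over 59 effector CD8 T-like cells, against 15 over 76 T-like cells (0.84, -0.03 to 1.79). Where the Igkc UMIs of these cells came from was not tested.

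In anti-CD20, macrophage/monocyte-like cells had more of both chains than T-like cells, with 34 and 51 Igkc UMIs in 20 and 150 cells (log2 ratio 1.40, 0.73 to 2.06) and 28 and 58 Ighm UMIs (0.94, 0.23 to 1.61). The macrophage/monocyte-like cell named above held 13 of the 34 Igkc UMIs.

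Across 21 pools of 1 class in 1 library, the genes whose level was most like the sum of the members were B cell and plasma cell genes, by Pearson's r of log2(CPM + 10) over 9056 genes. Pou2af1, a coactivator of immunoglobulin promoters, had r = 0.907. Blnk, the adaptor that carries the signal of the B cell receptor, had 0.884, Dennd5b 0.876, Fcrla 0.874, Mzb1, a chaperone of IgM assembly, 0.874, and Vpreb3 0.872. Cd79b had 0.856, Ms4a1 0.854, Txndc5, a disulfide isomerase, 0.850 and A430035B10Rik 0.840. Only 1 pool, from anti-CD20, was plasma cell-like, and the order of the genes depended on it. Without it r was 0.955 for Cd79b, 0.945 for Ms4a1 and 0.935 for Pou2af1, but 0.769 for Txndc5 and 0.761 for A430035B10Rik. The pools share libraries and the classes were named from some of these genes, so the values are a description. Members had r of 0.672 (Iglv2) to 0.990 (Igkc) with the sum that holds them.

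Genes that work with the members were followed as lists. Of 17 B cell receptor partners with enough UMIs, 13 were lower in combination than in anti-CD20, where 8.33% of all genes were, and 0 were higher, where 9.43% were, with a median log2 ratio of -3.45 against -0.08 over all genes. Cd79b had 13 and 794 UMIs (-5.90), Cd22, an inhibitory coreceptor, 5 and 435 (-6.41), and Bank1, a B cell scaffold protein, 17 and 409 (-4.55). Between anti-CD27 and isotype control 8 of 17 were lower, where 6.2% of all genes were, and 0 higher, where 6.52% were (median -0.95 against -0.11), with Cd79b at -1.22. Within B-like cells 0 of 17 passed in either direction, where 3.53% were lower and 2.98% higher. Of the antibody secretion genes 5 of 15 were lower in combination than in anti-CD20, where 8.33% of all genes were (median -0.19 against -0.08), among them Mzb1, with 12 and 491 UMIs (-5.32). The others that passed were Pdia4, Txndc5, Eaf2 and Pou2af1. Hsp90b1 (1118 and 1178 UMIs, -0.04) and Hspa5 (737 and 542 UMIs, 0.48), both chaperones of the endoplasmic reticulum, did not pass. Of the rearrangement and switching genes, Vpreb3, a partner of the pre-B cell receptor, was lower in combination than in anti-CD20, with 21 and 174 UMIs (-3.02), while Apex1, a DNA repair endonuclease, was within 2-fold (-0.60).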

How the data were processed

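The authors deposited 1 table of raw UMI counts per gene and cell barcode from their Drop-seq libraries, made, per the study's methods and processing notes, by bcl2fastq, alignment to mm10 with STAR 2.5.0a and digital counting of unique molecular identifiers. How reads that fit several genes were treated is not given in the sources used here. Columns were mapped to libraries by their prefix. The isotype control columns carry the prefix PBS and were given to that sample because the other 3 prefixes name the other treatments, and 0 columns were left unmapped.

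Following the study's limits, barcodes with under 300 or over 3000 detected genes were left out. Counts were summed per library and class and given as CPM with exact Poisson intervals, ratios with exact conditional binomial intervals, shares with Clopper-Pearson intervals and differences of shares with Newcombe intervals. UMI shares between genes were not corrected for length, since a UMI counts 1 transcript whatever its length. A count of 0 has a floor of 3 counts, per library. A gene was called different where it had at least 30 UMIs in both libraries together, differed by over 2-fold and had an interval that excluded no change.

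Cells were clustered with scikit-learn 1.9.0 and leidenalg 0.10.2 (counts scaled to 10000 per cell, log, 2000 variable genes without immunoglobulin genes, 30 components, 15 neighbours, Leiden resolution 1). A cluster took the class with the most markers among its 30 leading genes, with at least 3. An NK-like cluster needed Cd3 genes in under 30% of cells, and an effector CD8 T-like one Cd8 genes in at least 20%. These naming limits were set after clusters of these data had been seen, and they may differ from the classes of the study. Scrublet, run in scanpy 1.11.5, called 16 of 1770 cells (0.904%) doublets, and all cells were kept. The clusters stand for the labelled tissue, spleen, whose B, T and myeloid markers were present.

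All 9 members are described. Other immunoglobulin genes were named if among the 15 with the most UMIs, and genes of like pattern were the 10 with the highest Pearson's r. The members, lists and tests were chosen with earlier results of these data known. Of the list of rearrangement and switching genes, some members are not reported here. The ratio and interval code was tested on simulated Poisson counts per gene and library. These do not gather in single cells as the members' UMIs do here, so that test does not cover such genes. Alternatives were no upper limit and a lower limit of 500 genes, other denominators and TMM factors (edgeR 4.0.16), other cluster settings, classes from each cell's own markers, means over cells, other light chain limits and thinning. Those that leave out single cells or plasma cells were added after seeing the data.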

Additional observations from a re-analysis of the deposited data

Results flagged for a closer look

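The 3 γ genes moved in opposite directions in the comparisons with and without anti-CD20. Ighg2b, Ighg2c and Ighg3 were lower in combination than in anti-CD20, with 0, 0 and 2 UMIs in combination and 1676, 2141 and 352 in anti-CD20. They were higher in anti-CD27 than in isotype control, at log2 ratios of 2.76, 3.51 and 1.88. With 1 library per treatment this difference was not tested. In anti-CD27 a single plasma cell-like cell held 520 of 531, 716 of 727 and 94 of 106 of these UMIs, and without the top cell of each library the ratios were -2.58, -2.34 and -1.16.

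Barcodes with over 3000 detected genes, which were left out, held member UMIs in anti-CD20 above the control. Their level was 112 CPM in 30 combination barcodes, 387 CPM in 14 anti-CD27 barcodes and 5297 CPM in 5 anti-CD20 barcodes, against 249.7 CPM in 2 isotype control barcodes. The anti-CD20 value came from 372 UMIs, 166 of them in 1 barcode, among 70230 UMIs.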

How the results depend on the processing

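No paired analysis was possible because each treatment has 1 library. Of 77 alternative values of the 10 main results 50 stayed within counting error, 27 moved and 0 reversed, where reversed means that a value called past 2-fold changed sign. Only the ratios of -3.16 and 4.13 below could take that label. The other main results were shares or lay within 2-fold, so the count of 0 says little about them. Of 635 of the 62 single-gene results, 481 stayed, 140 moved and 14 reversed. The log2 ratio of the members' sum between combination and anti-CD20 (-3.16) was -3.63 with no upper limit on genes, -3.07 with TMM factors, -6.88 without the top cells, -5.21 without the plasma cell-like cluster and -5.21 without its cells with 3 or more markers. That between anti-CD27 and isotype control (-0.36) was -0.49, -0.20, -0.22, -1.32 and -1.36 in the same order, and -0.33 as a mean over cells. In B-like cells the ratio of anti-CD27 to isotype control (-0.28) was -0.086 as a mean over cells. That of anti-CD20 to isotype control (0.03) was 0.42 at Leiden resolution 0.5, -0.42 with classes from own markers, -0.22 as a mean over cells and -0.37 without the top cells, so the sign of this value, which was not called, varied. The plasma cell-like share of member UMIs (76.8%) was 80.003% with own-marker classes, 74.4% without the top cell and 76.3% for cells with 3 or more markers. Non-B cells with a member UMI were 5.97% and 10.6% of combination (19.5%) and 25.5% and 45.9% of anti-CD20 cells (56.8%) when thinned to 400 and 800 UMIs. The Igkc ratio of effector CD8 T-like to T-like cells in combination (4.13) was 2.14 with no upper limit and 0.99 with own-marker classes. B-like cells with both light chains (53.2%) were 76.2% with a limit of 90%, and those with an Ighm UMI (86.1%) were 65.6% when thinned to 400 UMIs.

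Reversed values between anti-CD27 and isotype control, without the top cells, the plasma cell-like cluster and its cells with 3 or more markers, were -2.58, -2.80 and -2.83 for Ighg2b, -2.34, -2.50 and -2.54 for Ighg2c, and -1.16, -1.17 and -1.26 for Ighg3. Between anti-CD20 and isotype control, without the cluster and without those cells, they were -0.55 and -0.52 for Ighg2b and -0.018 and -0.027 for Ighg2c. Igj in B-like cells between anti-CD20 and isotype control was -0.15 with own-marker classes. The γ reversals follow from leaving out the few cells that hold the UMIs. For that of Igj and the other moves the cause was not tested. Leiden resolution 0.5 gave no plasma cell-like class.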

Other observations

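Of 185 immunoglobulin genes in the table, the 9 members held 60074 of 64640 UMIs (92.9%). The next were Igha, the IgA constant gene, with 1259 UMIs, 1249 of them in anti-CD20, and Ighg1, with 828, 817 of them in anti-CD20. In 1 anti-CD20 plasma cell-like cell 786 Ighg1 UMIs were counted. Iglv3, a λ variable segment, had 155 UMIs in 56 cells, with at most 14 in 1 cell. The joining segments Igkj1, Igkj2, Ighj4, Igkj4, Ighj3 and Igkj5 had 198, 138, 131, 82, 68 and 58 UMIs. Single cells gave most UMIs of the variable segments Igkv8-28 (127 of 130), Igkv8-30 (114 of 119), Igkv4-50 (103 of 105), Igkv1-88 (70 of 85), Ighv10-1 (54 of 84) and Igkv10-96 (44 of 79).

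A cluster of 19 cells led by Vpreb3, which took no class, had 3 combination, 5 anti-CD27, 7 anti-CD20 and 4 isotype control cells. The 3 combination cells held 14 Ighm, 17 Igkc and 10 Iglc2 UMIs, in a library with 37 Iglc2 UMIs, 22 of them in the plasma cell.

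Barcodes with under 300 genes held members at 78.3 CPM in combination, 7512 in anti-CD27, 1173 in anti-CD20 and 14995 in isotype control. Up to 293 member UMIs lay in 1 anti-CD27 barcode, at 60.2% of its UMIs, and up to 628 in 1 isotype control barcode, at 71.0%. The largest count in 1 such barcode was 24 in anti-CD20 and 1 in combination. The limit of 300 genes thus left out barcodes rich in member UMIs in anti-CD27 and isotype control. Whether they were plasma cells was not tested, and the counts of plasma cells do not include them.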
